A study of Mus musculus with 21 samples.

Results

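This report describes 6 transcription factor genes of CD8 T cell activation, Batf, Batf3, Irf4, Irf8, Zbtb32 and Nfil3, out of 17516 genes in the count tables, taken by name. They were followed in mouse OT1 CD8 T cells, which carry a transgenic receptor for an ovalbumin peptide, by droplet RNA sequencing of single cells. The 21 libraries are 21 conditions with 1 library each. A single library is of naive cells on day 0, before any bead. All others are of cells activated on day 0 with beads coated with anti-CD3 and anti-CD28 antibody, without added cytokine (days 3 and 5) or with IL-2, IL-2v or IL-15 at 5 or 50 IU/mL (days 3, 5 and 10). IL-2v is a mutant IL-2, written as mutant IL-2bg in the treatment labels. For 6 libraries the treatment label and the title disagree (3 IL-2 libraries at 50 IU/mL name interleukin-3, and 3 IL-15 libraries at 50 IU/mL name interleukin-16), and titles were followed. The labels give no animal number, age or genotype beyond OT1, and their sorting text speaks of CD44+ CD45.1+ CD8+ cells from tumours, which does not match the cultures of the growth text.

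The libraries held 3250 to 7105 cells and 10589950 to 32648496 unique molecular identifiers (UMIs, 1 per captured RNA molecule), with medians of 3016 to 5065 UMIs per cell. Cd3d was detected in 93.0% to 99.5% of the cells of a library and Cd8b1 in 54.5% to 92.0%, while Cd4 was detected in at most 1.49%. The B cell markers summed to 1.54 to 17.8 CPM in a library, with the defining factor Pax5 at 0 UMIs in all 21, and the 3 dendritic cell markers in the tables (Xcr1, Itgax and Flt3) summed to at most 2.65 CPM. Levels are given here and throughout as CPM, the UMIs of a gene per 1000000 UMIs of its library. These 2 lineages matter here because both use Irf8 and Batf3 or Zbtb32 themselves. At most 19 cell barcodes were shared between any pair of libraries. With 1 library per condition, no test between conditions was run. Intervals printed here are 95% intervals of counting error only and do not cover the spread between cultures or animals.

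BATF and BATF3 are small leucine zipper proteins of the AP-1 family that pair with JUN proteins. IRF4 and IRF8 are interferon regulatory factors that bind DNA weakly alone and join BATF-JUN pairs on composite DNA elements, and T cell receptor signals induce IRF4 in proportion to their strength. In CD8 T cells BATF and IRF4 are needed for the expansion and metabolism of effector cells, IRF8 is known as a factor of effector differentiation, and BATF3 is best known for the dendritic cells that present antigen to CD8 T cells. ZBTB32 is a zinc finger repressor that limits lymphocyte responses, and NFIL3 is a leucine zipper repressor that binds the D-box, a site shared with clock factors, and responds to cytokines in lymphocytes.

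Receptors of this cytokine family signal through STAT5, whose sites follow the letters TTCNNNGAA. The promoters of Irf8 and Batf3 are shown for their matches to these letters and that of Zbtb32 for its repeated CCAAT box, a choice made after the search. The windows hold 250 bases before and 50 after a RefSeq start (GRCm38.p6), and capitals mark matches to the motifs searched, the NFAT core excepted. Irf8 is on the plus strand of chromosome 8 (gene chr8:120736358-120756694), Batf3 on the plus strand of chromosome 1 (gene chr1:191097847-191108945) and Zbtb32 on the minus strand of chromosome 7 (gene chr7:30589681-30598909), in the GENCODE annotation of the same assembly.
Irf8, chr8:120736108-120736407, plus strand: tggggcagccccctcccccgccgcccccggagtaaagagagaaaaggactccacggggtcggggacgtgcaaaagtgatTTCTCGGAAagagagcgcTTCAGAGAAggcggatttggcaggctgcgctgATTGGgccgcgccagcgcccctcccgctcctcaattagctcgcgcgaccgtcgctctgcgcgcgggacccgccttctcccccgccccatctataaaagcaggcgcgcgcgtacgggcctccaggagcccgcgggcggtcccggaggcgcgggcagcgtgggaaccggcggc
Batf3, chr1:191098164-191098463, plus strand: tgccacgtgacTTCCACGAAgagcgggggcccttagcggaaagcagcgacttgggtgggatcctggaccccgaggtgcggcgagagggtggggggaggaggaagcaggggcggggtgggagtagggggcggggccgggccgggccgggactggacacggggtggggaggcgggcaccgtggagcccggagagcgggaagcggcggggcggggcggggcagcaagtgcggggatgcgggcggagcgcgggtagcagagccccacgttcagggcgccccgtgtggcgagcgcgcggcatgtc
Zbtb32, chr7:30598860-30599159, minus strand: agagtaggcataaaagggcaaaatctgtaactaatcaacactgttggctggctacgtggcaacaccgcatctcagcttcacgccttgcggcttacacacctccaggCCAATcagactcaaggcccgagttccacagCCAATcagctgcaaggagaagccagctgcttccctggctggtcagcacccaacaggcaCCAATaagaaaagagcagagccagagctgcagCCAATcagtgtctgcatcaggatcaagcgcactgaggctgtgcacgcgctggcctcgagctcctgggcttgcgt

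The Irf8 window held 2 matches to the STAT letters, TTCTCGGAA and TTCAGAGAA, which begin at bases −171 and −153 relative to the start. Batf3 held 1, TTCCACGAA, from base −239 of its RefSeq start, in a window that lies wholly inside its GENCODE gene. At least 1 such match was present in 8.30% of 32851 promoter windows of the same length, and at least 2 in 0.457%. Zbtb32 had none of these letters but 4 copies of the CCAAT box, which 1.06% of windows reached, and 37.4% of windows held at least 1 (CCAAT or its reverse ATTGG). Nfil3 (gene chr13:52967209-52981073, minus strand) and the Irf8 window each held 1 CCAAT box. No window of the 6 members (8 windows, since Irf8 and Zbtb32 each have another start) held an AP-1 site (TGANTCA, in 7.81% of all windows), the composite of an AP-1 site and IRF letters (TTTC, any 4 bases, then the AP-1 letters, in 0.119%), an interferon response element (GAAA, any 2 bases, GAAA, in 3.44%), an ETS and IRF element (GGAA, any 2 bases, GAAA, in 2.72%) or a D-box (TTANGTAA, in 2.32%). The NFAT core GGAAA was in 61.3% of all windows, and 1 copy in Irf8 overlaps TTCTCGGAA. Batf (gene chr12:85686669-85709087, plus strand) and Irf4 (gene chr13:30749226-30766976, plus strand) held matches to the NFAT core alone. All motifs were searched on both strands, and a match is a run of letters, not a shown binding site.

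Batf was detected in every library and varied least. It stood at 26.6 CPM (95% interval 24.3 to 29.0) in naive cells and at 60.4 CPM (57.2 to 63.7) on day 3 without cytokine, its highest level. On day 3 Batf was at 51.3 and 31.2 CPM at 5 and then 50 IU/mL of IL-2, 42.5 and 45.6 CPM with IL-2v, and 58.1 and 46.6 CPM with IL-15. Every activated culture was above naive cells on that day, with overlapping intervals for 50 IU/mL of IL-2. On day 5 Batf was at 46.1 CPM without cytokine, 58.3 and 33.7 CPM with IL-2, 41.5 and 35.0 CPM with IL-2v, and 40.9 and 39.7 CPM with IL-15. By day 10 it was at 56.5 and 37.8 CPM with IL-2, 31.1 and 28.9 CPM with IL-2v, and 16.4 and 24.2 CPM with IL-15, so that IL-15 cells were at or below the naive level. Ranked by level, 19 of the 20 pairs of neighbouring libraries had overlapping intervals.

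Batf3, the partner-like relative of BATF, had 0 UMIs in 4777 naive cells, which allows a share of up to 0.0628% of cells with a UMI by the floor of 3 counts (0.0772% by the upper Clopper-Pearson bound). On day 3 Batf3 was at 24.8 CPM (22.7 to 26.9) without cytokine, 35.1 and 128 CPM at 5 and then 50 IU/mL of IL-2, 25.3 and 61.1 CPM with IL-2v, and 27.0 and 24.9 CPM with IL-15. The 2 libraries at 50 IU/mL of IL-2 and IL-2v stood apart from the rest on that day. On day 5 it was at 11.2 CPM without cytokine, 4.09 and 22.2 CPM with IL-2, 0.271 and 6.88 CPM with IL-2v, and 3.41 and 1.55 CPM with IL-15. On day 10 Batf3 was at 46.0 CPM (43.5 to 48.6) with 50 IU/mL of IL-2. It had 1 UMI in the 6382 cells with 5 IU/mL of IL-2, 0 UMIs with 5 IU/mL of IL-2v and with 50 IU/mL of IL-15, and was at 1.03 and 0.214 CPM with 50 IU/mL of IL-2v and 5 IU/mL of IL-15. High-dose IL-2 was thus the single day 10 culture with more than 1.03 CPM.

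Irf4 was at 1.08 CPM (0.661 to 1.67) in naive cells. On day 3 it was at 39.9 CPM without cytokine, 51.1 and 82.1 CPM with IL-2, 49.2 and 93.0 CPM with IL-2v, and 43.0 and 48.1 CPM with IL-15. On day 5 Irf4 was at 12.3 CPM without cytokine, 22.9 and 42.8 CPM with IL-2, 23.9 and 58.8 CPM with IL-2v, and 13.9 and 23.7 CPM with IL-15. Every culture was lower on day 5 than on day 3, and every cytokine culture was lower again on day 10. On day 10 it was at 16.7 and 16.9 CPM with IL-2, 15.5 and 29.4 CPM with IL-2v, and 7.72 and 4.93 CPM with IL-15, the last being 157 UMIs in 6548 cells. All day 10 cultures remained above the naive level.

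Irf8 was at 4.60 CPM (3.68 to 5.69) in naive cells and at 87.5 CPM on day 3 without cytokine. With IL-2 on day 3 Irf8 was at 99.9 and 111 CPM, with IL-2v at 108 and 101 CPM, and with IL-15 at 72.8 and 85.5 CPM. The 7 activated cultures were therefore close together on that day. They spread apart on day 5, at 20.6 CPM without cytokine, 21.1 and 95.5 CPM with IL-2, 38.8 and 127 CPM with IL-2v, and 14.1 and 37.7 CPM with IL-15. On day 10 Irf8 was at 69.1 and 279 CPM with IL-2, 19.1 and 159 CPM with IL-2v, and 3.17 and 6.90 CPM with IL-15. Its highest level, with 50 IU/mL of IL-2 (interval 273 to 285), and its level of 3.17 CPM with 5 IU/mL of IL-15, below naive cells but with overlapping intervals, were thus both found on day 10.

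Zbtb32 was at 1.08 CPM in naive cells. On day 3 it was at 36.4 CPM without cytokine, 45.6 and 111 CPM with IL-2, 52.3 and 164 CPM with IL-2v, and 42.6 and 49.1 CPM with IL-15. On day 5 Zbtb32 was at 3.12 CPM without cytokine, 6.73 and 42.9 CPM with IL-2, 9.33 and 117 CPM with IL-2v, and 5.29 and 10.0 CPM with IL-15. Taken as a ratio of CPM, the fall from day 3 was largest without cytokine and smallest with 50 IU/mL of IL-2v. On day 10 it was at 11.6 and 289 CPM with IL-2, 3.89 and 177 CPM with IL-2v, and 0.729 and 0.628 CPM with IL-15. The IL-15 cultures had returned to the range of naive cells, with 17 and 20 UMIs in all, while 50 IU/mL of IL-2 gave the highest Zbtb32 level of all libraries.

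Nfil3 was at 1.46 CPM in naive cells and at 15.4 CPM (13.8 to 17.1) on day 3 without cytokine. On day 3 it was at 23.3 and 86.7 CPM with IL-2, 22.7 and 30.8 CPM with IL-2v, and 12.2 and 15.3 CPM with IL-15. High-dose IL-2 was highest on that day and high-dose IL-2v next, with intervals apart from each other and from the other 5 activated cultures. On day 5 Nfil3 was at 8.92 CPM without cytokine, 20.7 and 89.5 CPM with IL-2, 22.4 and 98.4 CPM with IL-2v, and 5.99 and 14.2 CPM with IL-15. On day 10 it was at 41.3 and 137 CPM with IL-2, 11.2 and 109 CPM with IL-2v, and 3.60 and 9.85 CPM with IL-15. The intervals of the 2 high-dose cultures overlapped on day 5 and were apart on day 10.

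**Figure D1:**
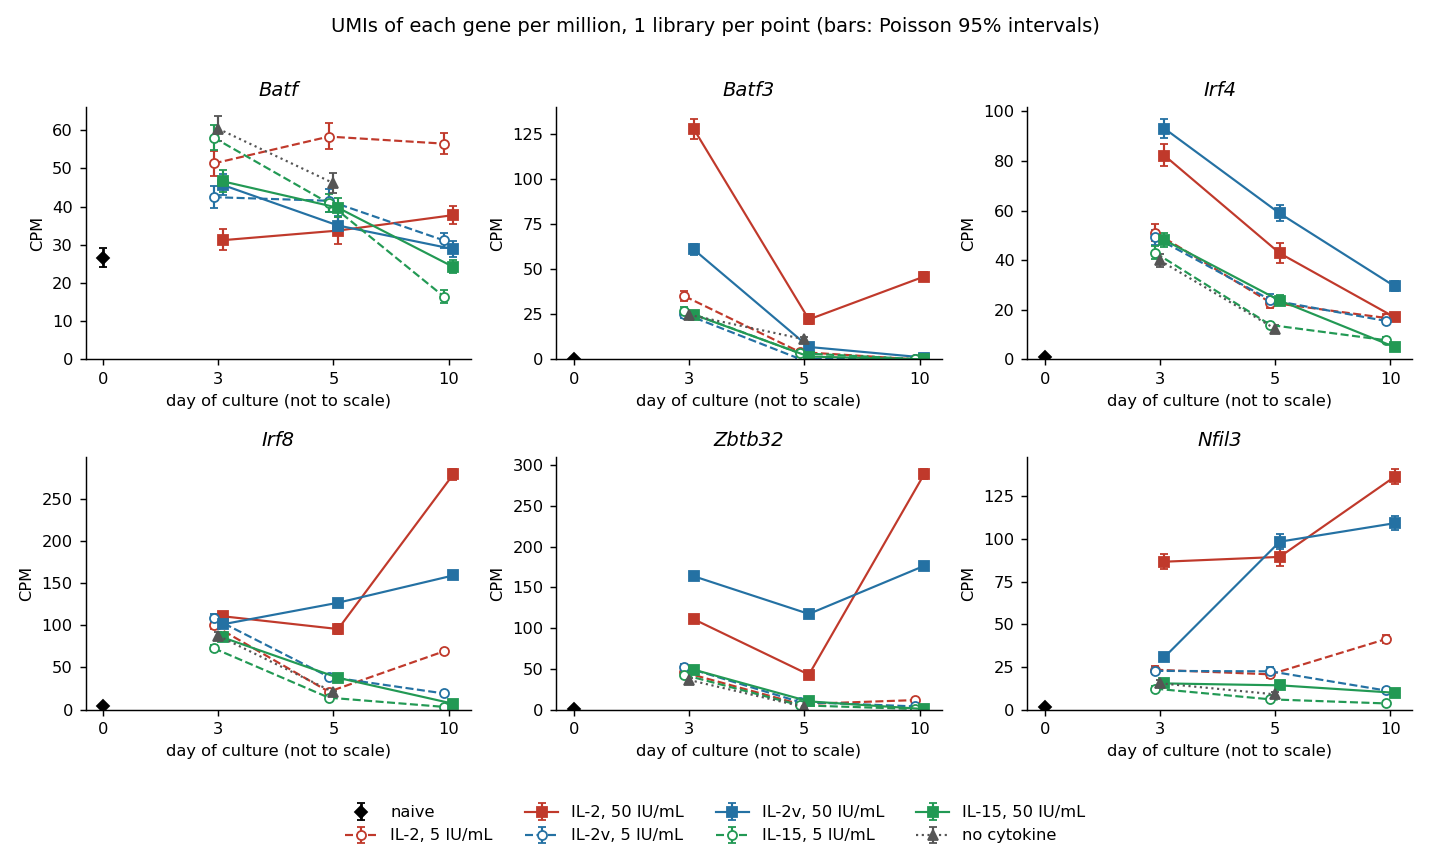
Level of each gene in CPM (vertical axes, each starting at 0) against day of culture (horizontal axis, days evenly spaced and not to scale), 1 library per point, with 95% Poisson bars. Irf8 and Zbtb32 reach 279 and 289 CPM with 50 IU/mL of IL-2 on day 10, whereas Irf4 is lower in each cytokine culture on day 10 than on day 5.

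Bead activation was read from the day 3 culture without cytokine against naive cells. A gene is counted as called where its mean over the pairs is at least 20 CPM in either arm (the level filter), with the same sign in all pairs of libraries and a median difference of log2(CPM + 1) of at least 1 in size, that is 2-fold. This is a rule of size, not a test, and the added 1 CPM understates changes of low genes. On activation 5 of the 6 members were called higher, against 11.1% of the 6171 genes that passed the level filter called higher and 8.31% lower. Irf4 was higher by 4.29 on the log2 scale, Irf8 by 3.98, Zbtb32 by 4.16 and Batf by 1.15. Batf3 was higher by 4.69 on that scale, and at least 152-fold higher when naive cells are set to a floor of 3 UMIs. Nfil3 differed by 2.74 but stayed under the level filter. The same filter left the Batf3 call out when only cells without a UMI of Mki67 or Top2a, genes of dividing cells, were used (difference 4.33, with 466 of all genes called higher and 655 lower, against 684 and 513 in all cells), and Batf was not called with 10 CPM added in place of 1 (0.94). Cells with a UMI of either gene made up 3.01% of naive cells and 60.0% of the day 3 culture.

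The fall after day 3 divided the members. Without cytokine 4 of them were called lower on day 5 than on day 3, Zbtb32 at −3.18, Irf8 at −2.03, Irf4 at −1.62 and Batf3 at −1.08 on the log2 scale, against 9.47% of genes called lower in that pair and 3.61% higher. Batf (−0.38) and Nfil3 (−0.73) were not called. The Batf3 call is near its threshold and was lost under 5 alternatives, with values from −0.98 to −0.72. Of all genes called here 209 were higher and 548 lower, and with the libraries rescaled by trimmed means (TMM, a scaling that sets the bulk of genes equal) 297 were higher and 484 lower. Leaving out dividing cells, marked by Mki67 or Top2a, gave 203 and 274.

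With cytokine, in 6 pairs of equal cytokine and dose, Batf3 and Zbtb32 were called lower on day 5, against 2.22% of all genes called lower and 0.829% higher. Batf3 had a median difference of −2.90 and was lower in 6 of 6 pairs, from −4.37 with 5 IU/mL of IL-2v to −2.48 with 50 IU/mL of IL-2. Zbtb32 had a median of −2.27 and was also lower in 6 of 6 pairs, from −2.79 with 5 IU/mL of IL-15 to −0.48 with 50 IU/mL of IL-2v. Irf4 was lower in 6 of 6 pairs, from −1.57 to −0.65, and its median of −0.999 just missed the threshold, which the mean CPM of single cells passed (−1.04). Irf8 had a median of −1.31 but was higher by 0.32 in the pair with 50 IU/mL of IL-2v, so it was not called. Without the IL-2v pairs Irf4 (−1.06) and Irf8 (−1.68) were called too, which makes 4 members. Fewer pairs make the same sign easier to meet for any gene. The share of all genes called without those pairs is not given here. Batf (median −0.13) and Nfil3 (−0.06) had pairs of both signs, and Nfil3 differed by 1.65 with 50 IU/mL of IL-2v. Among all genes 49 were called higher and 131 lower, and 67 and 89 with TMM scaling.

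On day 10, set against the same day 3 libraries, Batf3 and Irf4 were called lower, against 7.98% of all genes called lower and 0.87% higher. Irf4 was lower in 6 of 6 pairs, with a median of −1.92 and a range from −3.05 with 50 IU/mL of IL-15 to −1.56 with 5 IU/mL of IL-2. Batf3 was lower in 6 of 6 pairs with a median of −4.71, or −7.51 with libraries under 3 UMIs set to the floor. It was at least 276-fold lower with 5 IU/mL of IL-2v and at least 265-fold lower with 50 IU/mL of IL-15, and with 5 IU/mL of IL-2 the ratio of day 3 to day 10 was 1046 (interval 187 to 41374), since day 10 had 1 UMI. That ratio was taken without the floor, so it cannot be ranked against the lower limits given before it. With 50 IU/mL of IL-2 the difference of Batf3 was −1.46. All 4 of these calls after day 3 were kept in each set that left out a cytokine.

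Irf8 and Zbtb32 moved in opposite directions by culture between day 3 and day 10. Irf8 differed by 1.33 with 50 IU/mL of IL-2 and by 0.65 with 50 IU/mL of IL-2v, but by −0.53 and −2.44 at 5 IU/mL of the same cytokines and by −4.14 and −3.45 at 5 and then 50 IU/mL of IL-15. Zbtb32 differed by 1.37 and 0.11 in the same 2 high-dose cultures, by −1.88 and −3.45 at 5 IU/mL, and by −4.65 and −4.94 with IL-15. Nfil3 differed by 0.80 and 0.65 at 5 and then 50 IU/mL of IL-2, by −0.96 and 1.80 with IL-2v, and by −1.52 and −0.59 with IL-15. Irf8 and Zbtb32 were each higher in 2 of 6 pairs and lower in 4, Nfil3 was higher in 3 and lower in 3, and none of these 3 genes was called. From day 5 to day 10 none of the 5 members that passed the level filter was called, against 1.69% of all genes in either direction and 1.62% lower. Batf3, under the filter, had a median of −1.60 (−3.37 with libraries under 3 UMIs set to the floor) and was lower in 5 of 6 pairs. Irf4 was lower in 6 of 6 pairs there (median −0.87) and was called lower, at −1.03, without the IL-2v pairs. Among all genes 52 were called higher and 477 lower from day 3 to day 10, and 98 and 282 with TMM scaling.

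**Figure D2:**
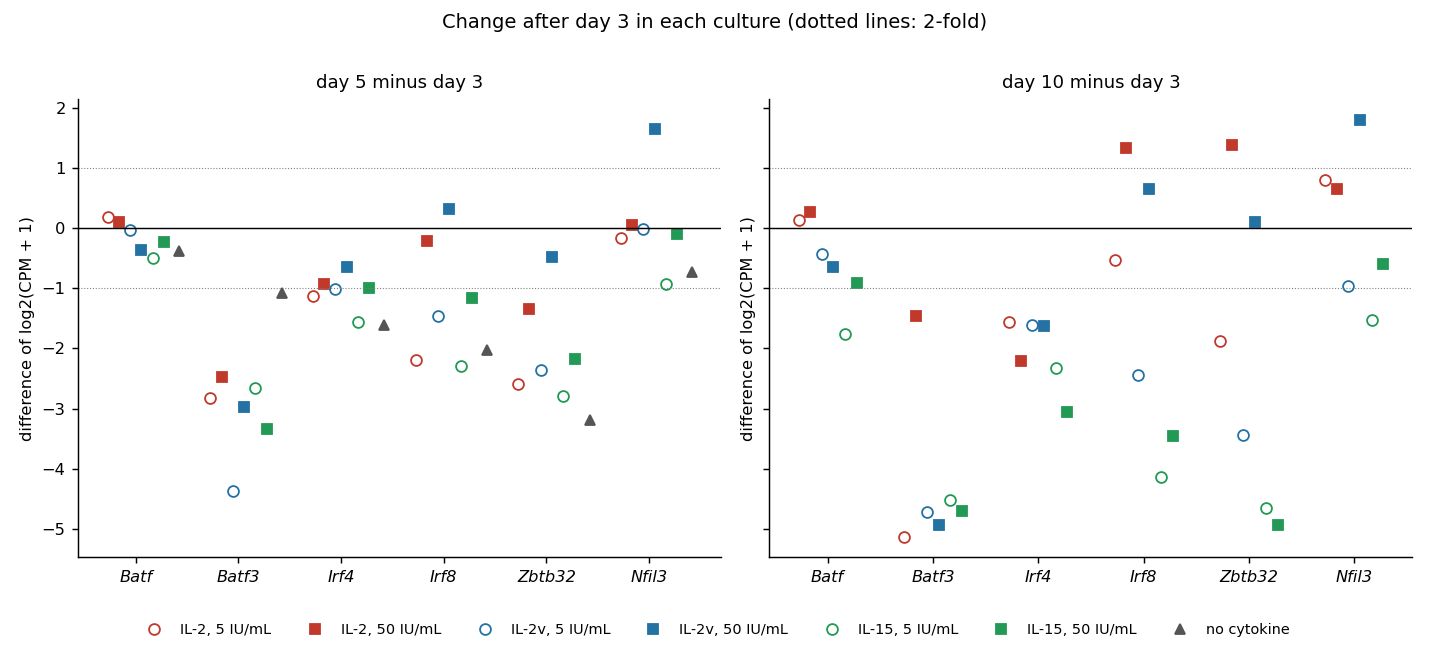
Difference of log2(CPM + 1) from day 3 to day 5 (left) and from day 3 to day 10 (right) for each gene, 1 point per culture, with dotted lines at 2-fold. On day 10 all points of Batf3 and Irf4 lie below −1, while those of Irf8 run from −4.14 to 1.33 and those of Zbtb32 from −4.94 to 1.37.

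A higher dose of IL-2 went with higher levels of 4 members. At 50 against 5 IU/mL of IL-2, in 3 pairs of equal day, Zbtb32 (median 2.50), Batf3 (2.19), Irf8 (1.998) and Nfil3 (1.85) were called higher, against 4.29% of all genes called higher and 2.7% lower. Zbtb32 differed by 1.27 on day 3, 2.50 on day 5 and 4.52 on day 10. Batf3 differed by 1.84, 2.19 and 5.51 on the same days, and on day 10 the ratio of its levels was 1370 (interval 245 to 54149) because of the single UMI at 5 IU/mL. Irf8 differed by 0.15 on day 3 and by 2.13 and 1.998 on days 5 and 10. Nfil3 was the most even of the 4, at 1.85, 2.06 and 1.70. Irf4 was higher on each day, by 0.67, 0.87 and 0.02, and was not called. Batf was lower on each day, at −0.70, −0.77 and −0.57, and was not called either.

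The medians of 3 pairs depend on the days used. Without day 3, day 5 or day 10 in turn, Zbtb32 had medians of 3.51, 2.89 and 1.88 with IL-2, and Irf8 had 2.06, 1.07 and 1.14. Batf3 had a median of 3.85 without day 3 and 3.67 without day 5. All these members stayed called.

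With IL-2v the step from 5 to 50 IU/mL gave calls of Zbtb32 (median 3.52), Nfil3 (2.09) and Batf3 (1.24), against 2.38% of all genes called higher and 0.626% lower. Zbtb32 differed by 1.63, 3.52 and 5.18 on days 3, 5 and 10, with a median of 4.35 without day 3 and 2.57 without day 10. Nfil3 differed by 0.42, 2.09 and 3.18, with a median of 1.26 without day 10. Batf3 differed by 1.24, 2.63 and 1.02, and on day 10 it was at least 11.2-fold higher at 50 IU/mL, from 28 UMIs against 0. Its call was lost without day 3 (median 1.83, under the level filter) and with 10 CPM added (0.72), and its median was 1.93 without day 10. Irf8 differed by −0.10, 1.68 and 2.99, was not called over the 3 days, and was called at 2.34 without day 3. Irf4 was higher on each day, by 0.91, 1.26 and 0.88, under the threshold at its median of 0.91, and passed it without day 3 (1.07), without day 10 (1.08) and without dividing cells (1.10). Batf differed by 0.10, −0.24 and −0.10. Among all genes 141 were called higher and 37 lower, and 101 and 57 with TMM scaling.

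With IL-15 the same step in dose called none of the 3 members that passed the level filter (Batf, Irf4 and Irf8), against 0.869% of all genes called higher and 0.181% lower. Irf8 was higher at 50 IU/mL on each day, by 0.23, 1.36 and 0.92, and passed the threshold with TMM scaling (1.04) and without day 3 (1.14). Without day 3, 182 of all genes were called in either direction, against 58 over all days. Nfil3, under the level filter, was higher by 0.30, 1.12 and 1.24, and was called (1.12) once that filter was set to 5 CPM or dropped. Irf4 differed by 0.16, 0.73 and −0.56, and Batf by −0.31, −0.04 and 0.54. Zbtb32 and Batf3 were under the level filter too, at differences of 0.20, 0.81 and −0.09 for Zbtb32 and −0.11, −0.79 and −0.28 for Batf3. Whether the dose steps differ between cytokines was not tested.

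**Figure D3:**
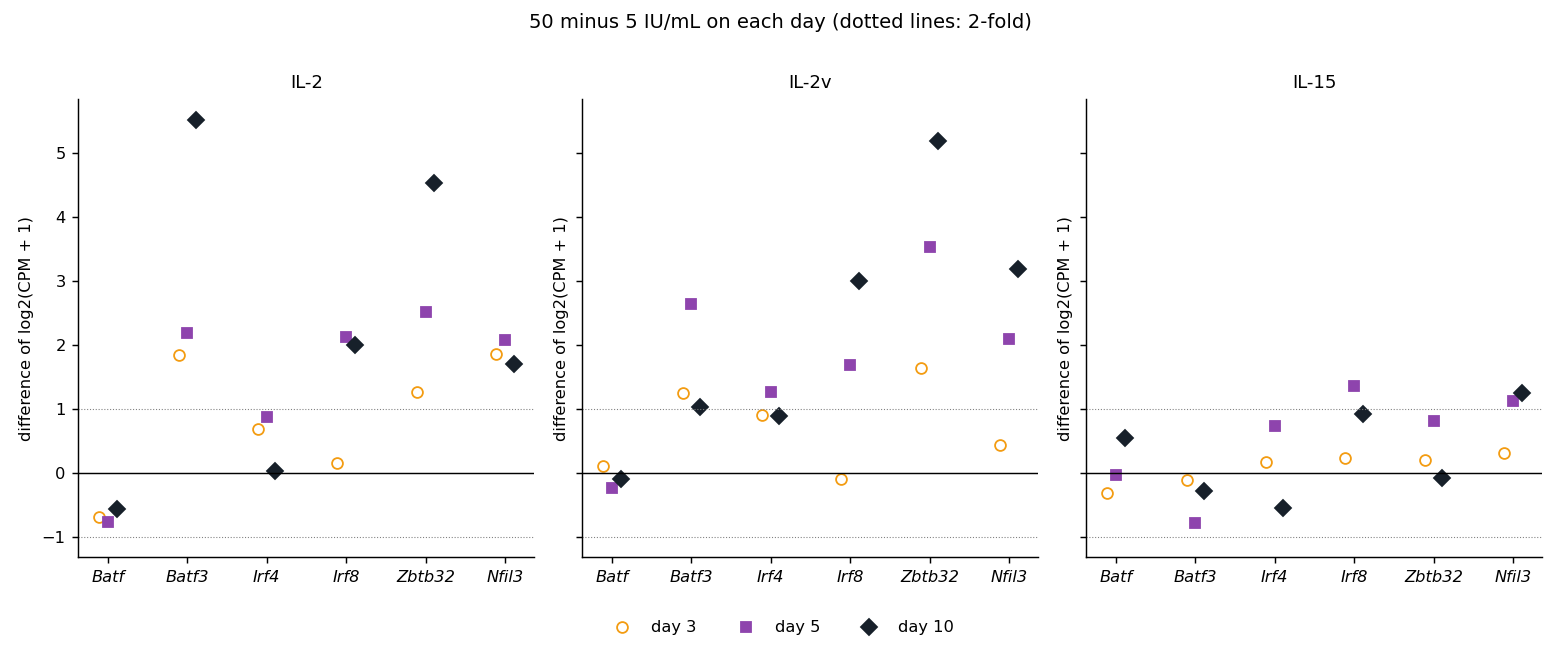
Difference of log2(CPM + 1) between 50 and 5 IU/mL of IL-2, IL-2v and IL-15 for each gene, 1 point per day, with dotted lines at 2-fold. The points of Zbtb32 lie between 1.27 and 5.18 with IL-2 and IL-2v and between −0.09 and 0.81 with IL-15.

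The 2 forms of IL-2 differed in a single called member. Over 6 pairs of equal day and dose Batf3 was called lower with IL-2v than with IL-2 (median −1.31, lower in 6 of 6 pairs, range −4.54 to −0.05), against 0.274% of all genes called lower. The pair at −0.05, at 5 IU/mL on day 10, held 0 UMIs with IL-2v and 1 UMI with IL-2. The same sign in all pairs, which the call needs, thus rests on 1 UMI. On day 10 at 50 IU/mL it was at 46.0 CPM with IL-2 and 1.03 CPM with IL-2v, a ratio of 44.9 (interval 30.9 to 67.8). The call did not hold without day 3 (median −1.78, under the level filter), without day 5 (−0.76) or with 10 CPM added (−0.69). Zbtb32 was higher with IL-2v on days 3 and 5, by 0.19 to 1.43, and lower on day 10, at −1.37 and −0.71 at 5 and 50 IU/mL, for a median of 0.31. Irf8 was higher with IL-2v on day 5 (0.85 and 0.40) and lower on day 10 (−1.80 and −0.81). Nfil3 was lower with IL-2v at 50 IU/mL on day 3 (−1.46) and at 5 IU/mL on day 10 (−1.80), and within 0.33 of IL-2 in the other 4 pairs. Irf4 differed by −0.10 to 0.76 and Batf by −0.84 to 0.53. Among all genes 61 were called higher and 16 lower, and 36 and 25 with TMM scaling.

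Against the same IL-2 libraries, IL-15 cultures had less Nfil3 (median −2.50) and Zbtb32 (−1.58), both lower in 6 of 6 pairs and called, against 1.7% of all genes called lower and 0.49% higher. Nfil3 differed by −0.88 and −2.42 at 5 and 50 IU/mL on day 3, −1.63 and −2.57 on day 5, and −3.20 and −3.66 on day 10. Zbtb32 differed by −0.10 and −1.16 on day 3, −0.30 and −1.99 on day 5, and −2.87 and −7.48 on day 10. The Zbtb32 call rests on day 10, since its median was −0.73 without that day and −2.43 without day 3. Irf8 was lower in 6 of 6 pairs with a median of −0.94, under the threshold, and at −4.07 and −5.15 on day 10. It was called without day 3 (−2.69) and without day 5 (−2.26), and also without cells of high UMI count (−1.08), by the mean CPM of single cells (−1.07) and without dividing cells (−1.13). Without day 3, 266 of all genes were called in either direction, against 125 over all days. Irf4 was lower in 6 of 6 pairs, from −1.59 to −0.25, with a median of −0.79. Batf3 was lower in 5 of 6 pairs (median −1.34) and was called without day 10, at the same median. On day 10 at 50 IU/mL Batf3 was at least 489-fold higher with IL-2 than with IL-15. Batf had 3 pairs on either side of 0.

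IL-2v cultures exceeded IL-15 cultures in 3 members, Zbtb32 (median 1.61), Nfil3 (1.57) and Irf8 (1.56), each higher in 6 of 6 pairs, against 2.48% of all genes called higher and 0.585% lower. Zbtb32 differed by 0.29 and 1.72 on day 3, 0.72 and 3.42 on day 5, and 1.50 and 6.77 on day 10, in each case at 5 and 50 IU/mL. Irf8 differed by 0.57 and 0.24, 1.40 and 1.72, and 2.27 and 4.34 on the same days, and its median fell short of the threshold without day 10 (0.98). Nfil3 differed by 0.84 and 0.96, 1.74 and 2.71, and 1.40 and 3.35. Without day 3 the medians of Zbtb32 and Nfil3 were 2.46 and 2.23, and with 10 CPM added neither was called (0.97 and 0.85). Irf4 was higher in 6 of 6 pairs with a median of 0.93, and passed the threshold without day 3 (1.10). Without day 3, 445 of all genes were called in either direction, against 178 over all days. Batf3 on day 10 at 50 IU/mL was at least 10.9-fold higher with IL-2v, from 28 UMIs against 0, and it was under the level filter over all pairs. Batf had a median of −0.0039. Among all genes 144 were called higher and 34 lower, with 87 and 53 under TMM scaling and 84 and 50 with totals that leave out ribosomal protein and mitochondrial genes.

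**Figure D4:**
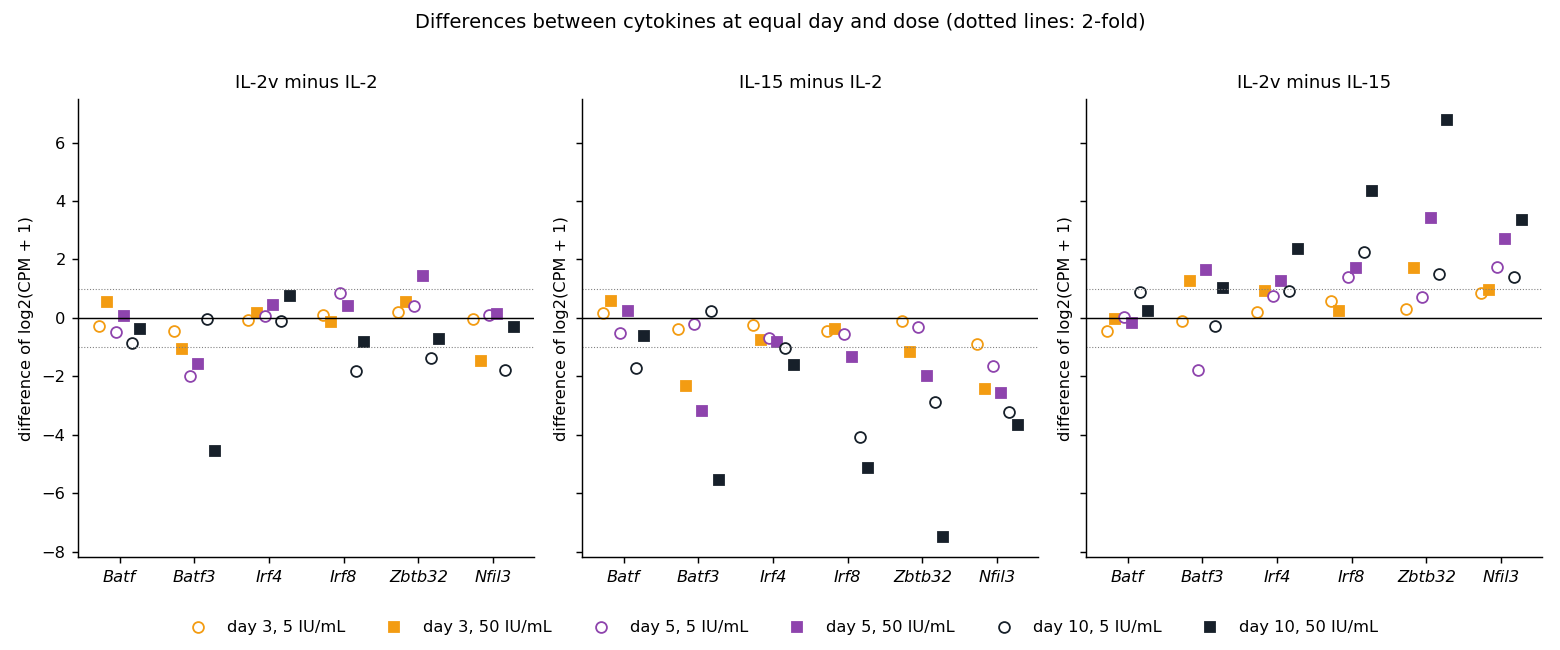
Difference of log2(CPM + 1) between cytokines at equal day and dose for each gene, 1 point per pair, with dotted lines at 2-fold. The widest differences are those of Zbtb32 on day 10 at 50 IU/mL, −7.48 for IL-15 against IL-2 and 6.77 for IL-2v against IL-15, while the points of Batf stay between −1.72 and 0.89.

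Some other measures also differed between day 10 libraries with high and low levels of Irf8, Zbtb32 and Nfil3, though not always in step. Median depth was 4926 and 4780 UMIs per cell at 50 and 5 IU/mL of IL-2v, where Zbtb32 was at 177 and 3.89 CPM. The day 10 library at 50 IU/mL of IL-2 had the highest median depth, 5065 UMIs per cell, and the lowest share of cells with a Cd8b1 UMI, 54.5%. The NK receptor gene Klrb1c, 1 of 2 NK cell markers, was at 21.3 CPM there, at 36.7 CPM with 50 IU/mL of IL-2v and at 22.0 CPM with 5 IU/mL of IL-2, against at most 3.31 CPM in the other 3 day 10 libraries. The other NK marker, Ncr1, was at 0 UMIs in both high-dose libraries. B cell markers summed to 2.64 and 1.54 CPM in the 2 high-dose libraries, from Cd79a and Cd79b alone, and dendritic cell markers to 0.403 and 1.03 CPM, where Irf8 itself was at 279 and 159 CPM. The parts of depth, Cd8b1, Klrb1c and these markers in the members' levels were not tested, but shares of cells are given at equal depth.

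To compare cells at equal depth, each cell was thinned to 2000 UMIs, which left out 57 to 393 cells per library. The share of cells with a Zbtb32 UMI was then 0.179% in naive cells (95% Clopper-Pearson interval 0.0773% to 0.352%) and 40.3% (38.8% to 41.7%) on day 10 with 50 IU/mL of IL-2, where it was 67.4% without thinning. It was 27.8% (26.6% to 29.1%) with 50 IU/mL of IL-2v and 0.124% (0.0537% to 0.245%) with 50 IU/mL of IL-15. The IL-15 share was thus within the interval of naive cells, which serve here as the low reference. For Irf8 the thinned share was 0.783% in naive cells, 36.5% (35.1% to 37.9%) with 50 IU/mL of IL-2 on day 10 (58.9% without thinning), 20.9% with IL-2v and 1.24% with IL-15 at that dose. For Nfil3 it was 0.291%, 23.1% (46.4% without thinning), 18.4% and 1.83% in the same 4 libraries.

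The number of UMIs in a cell was counted as well. On day 10 with 50 IU/mL of IL-2, 7.80% of thinned cells had 2 Irf8 UMIs, 2.34% had 3 and 1.47% had 4 or more, beside 24.9% with 1. Zbtb32 in the same library had 2 UMIs in 8.99% of cells, 3 in 2.71% and 4 or more in 0.724%. Over the 21 libraries, the mean number of UMIs per unthinned cell with a UMI reached at most 2.62 for Irf8 and 2.37 for Zbtb32. These maxima were 1.79 for Batf3, 1.63 for Nfil3, 1.42 for Irf4 and 1.21 for Batf, in cells of unequal depth. They do not all come from the same library. Batf was found in 3.69% to 11.7% of thinned cells over the 21 libraries, Irf4 in 0.246% to 16.9% and Batf3 in 0% to 18.5% (6.68% to 25.1%, 0.398% to 32.1% and 0% to 34.1% without thinning). The ranges show Batf as the member with the narrowest spread between conditions.

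**Figure D5:**
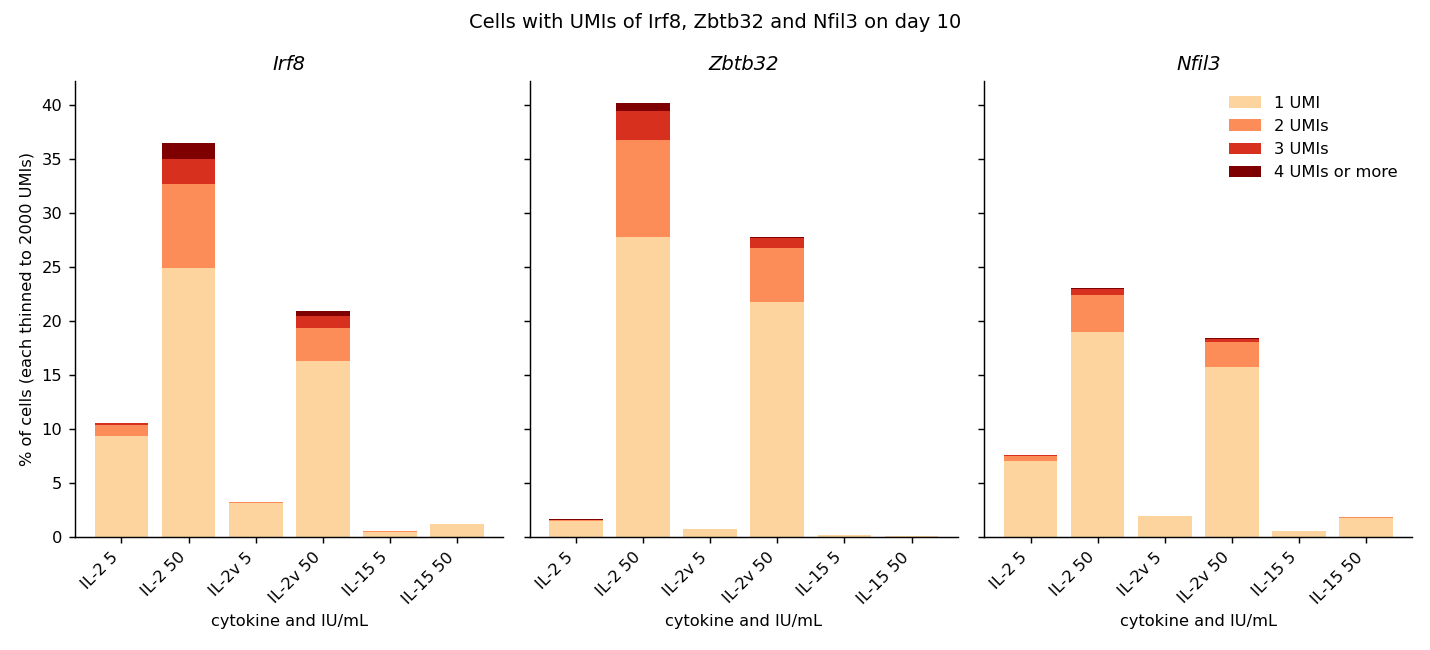
Share of cells (vertical axis, percent, each cell thinned to 2000 UMIs) with 1, 2, 3 or at least 4 UMIs of Irf8, Zbtb32 and Nfil3 in the 6 day 10 libraries (horizontal axis). With 50 IU/mL of IL-2 the bars reach 36.5%, 40.3% and 23.1%, against 1.24%, 0.124% and 1.83% with 50 IU/mL of IL-15.

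Members were compared within single cells by asking how often a gene was detected in cells with and without a UMI of a partner, in libraries where at least 50 thinned cells had the partner. Batf and Irf4, whose proteins act on shared DNA elements, had overlapping intervals in 21 of 21 libraries. The ratio of cells with both genes to the number expected if the 2 were independent had a median of 1.05 and a range from 0 to 1.54. Zbtb32 had a higher share among Batf3 cells than among the others, with intervals apart, in 5 of 10 libraries, the highest count of libraries among the 15 pairs of members. On day 10 with 50 IU/mL of IL-2 the share with Zbtb32 was 49.0% (43.2% to 54.8%) among cells with Batf3 and 39.7% (38.2% to 41.1%) among the others. Zbtb32 was likewise more frequent among Irf8 cells in 2 of 19 libraries, the high-dose IL-2 and IL-2v cultures of day 10, at 44.9% against 37.6% and at 32.0% against 26.7%. For Nfil3 and Zbtb32 this held in 4 of 19 libraries. Overlapping intervals at this depth do not show that 2 genes are independent. Co-detection was counted for pairs of members alone, with no share over pairs of other genes.

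Dividing cells, taken as those with a Mki67 or Top2a UMI, made up 3.01% to 86.9% of a library. This class is a range of cells set by detection, not a cell type. The share of all genes with intervals apart between the 2 classes was not counted. The counts below describe the members and do not set them apart from other genes. Zbtb32 was higher in these cells than in the others in 8 of 21 libraries by intervals that did not overlap, for example at 54.9 against 36.5 CPM on day 3 with 50 IU/mL of IL-15. Irf4 had overlapping intervals in all 21. Batf was lower in dividing cells in 4 libraries, at differences near −0.32 in each. Irf8 was higher in 4, among them 5 IU/mL of IL-2v on day 10 (26.9 against 10.9 CPM), and lower in 1. Batf3 was higher in 3, and Nfil3 higher in 2 and lower in 3. No member reversed the direction of its median in a comparison where it was called when dividing cells were left out.

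Genes linked to these factors were followed in 8 lists. Of 9 AP-1 genes, of the JUN and FOS groups and their relatives, 8 were in the tables and 3 or 4 passed the level filter in a comparison. Jun was called higher on activation (1.60), as 1 of 3 tested genes of this list beside 11.1% of all genes. It was also called higher on day 5 (1.24), as 1 of 4 beside 0.829%. The lowest gene of the list on activation was Junb at 0.24. Fosl2, which encodes a FOS-related protein, was the 1 called of 4 with the dose of IL-2 (3.17, beside 4.29% of all genes higher). It was also the 1 called of 4 with the dose of IL-2v (1.38, beside 2.38%). With IL-15 it was lower than with IL-2 (−2.39, 1 of 4 beside 1.7%). The lowest AP-1 gene in the IL-2 dose step was Junb at 0.05 and in the IL-2v step Jun at 0.02. Of 6 other interferon regulatory factors 5 passed the filter on activation. Irf7, induced by interferon, was called lower there (−1.59), beside 8.31% of all genes, with Irf1 as the highest at 0.07. Irf2 (1.28) and Irf7 (1.27) of 5 were called higher without cytokine on day 5, beside 3.61% of all genes, and Irf1 and Irf7 (−1.16) of 5 lower with the IL-2 dose, beside 2.7%, where Irf3 was the highest at −0.31.

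The effector list held 10 genes linked to BATF and IRF4. On activation 8 of its 9 tested genes were called higher (11.1% of all genes), from Gzmb, the protease granzyme B, at 6.42 down to the uncalled glucose transporter gene Slc2a1 at 0.76, with a median of 2.62 against −0.11 for all genes tested. Without cytokine 4 of 9 were called lower on day 5, beside 9.47% of all genes (median −0.85 against −0.0016), led by Gzmb at −3.74, with Hif1a uncalled at −0.47. No gene of 8 was called from day 3 to day 5 with cytokine (2.22% of all genes lower, 0.829% higher), where the range was from −1.34 (Prdm1) to 0.04 (Slc2a1). From day 3 to day 10, 4 of 8 were called lower (Prdm1, Hif1a, Ctla4 and Il12rb2) beside 7.98% of all genes, from −3.13 for Ctla4 to 0.17 for Slc2a1. From day 5 to day 10, 2 of 7 were called lower, Hif1a and Ctla4 (−2.56), beside 1.62% of all genes. Gzmb was the highest there at 0.33. In the IL-2 dose step 5 of 9 were called higher (Prdm1, Gzmb, Slc2a1, Slc2a3 and Hk2) beside 4.29% of all genes, with Gzmb the highest at 2.63 and Hif1a the lowest at 0.53. The IL-2v step called 2 of 8 higher, Prdm1 and Gzmb (1.88), beside 2.38% of all genes, and the IL-15 step 1 of 7, Gzmb (1.84), beside 0.869%. IL-15 had 5 of 8 called lower than IL-2 beside 1.7% of all genes (lowest Slc2a3 at −1.84), and IL-2v had 4 of 8 called higher than IL-15 beside 2.48% (highest Gzmb at 2.05). Ctla4 alone was called lower with IL-2v than with IL-2 (−1.27), beside 0.274% of all genes.

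Of 6 tested factors of the naive and memory state, Lef1 and Klf2 (−1.67) were called lower on activation, beside 8.31% of all genes, with Foxo1 the highest at −0.56. The dose steps of IL-2 and IL-2v each called Tcf7, Klf2 and Id3 lower, down to −2.94 for Id3 with IL-2 and −1.94 for Klf2 with IL-2v, beside 2.7% and 0.626% of all genes, and the same 3 were called lower with IL-2v than with IL-15, beside 0.585%. Klf2 was called higher with IL-15 than with IL-2 (1.70, beside 0.49% of all genes), Id3 lower with the IL-15 dose (−1.34, beside 0.181%) and higher without cytokine on day 5 (1.57, beside 3.61%), each as 1 of 6. Among 4 genes linked to ZBTB32, Eomes was called lower on activation (−1.63, beside 8.31% of all genes) and higher on day 10 against day 3 (2.63, beside 0.87%) and with the IL-15 dose (1.02, beside 0.869%), each time as 1 of 3 tested. Cd27 was called lower in the IL-2 dose step (−1.58, beside 2.7%) and with IL-2v against IL-15 (−1.11, beside 0.585%), and Gata3 lower from day 5 to day 10 (−1.02, beside 1.62%), again as 1 of 3.

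Of 13 factors linked to T cell receptor signals, 8 passed the filter on activation. Egr1 was called lower there (−2.45), beside 8.31% of all genes, and Nfkb1 was the highest at 0.86. In the other 10 comparisons none of 7 or 8 tested genes was called, where at most 9.47% of all genes were called in a given direction, with medians of single genes between −0.91 (Myc, without cytokine) and 0.94 (Rel, without cytokine). Of 6 other DNA-binding partners of IRF4 and IRF8, 4 were tested, and Ikzf3 alone was called, lower in the IL-2 dose step (−1.14, beside 2.7% of all genes). Ets1 was the lowest on activation at −0.88. Spi1 and Spib, the partners of IRF8 in myeloid and B cells, passed the filter in no comparison. Of 8 D-box and clock factors linked to NFIL3, Per1 and Dbp passed the filter, and Per1 was called higher in the IL-2 dose step (1.005, beside 4.29% of all genes), the sole comparison in which it was tested.

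Across the 21 libraries, which share days and cultures, the log2(CPM + 1) values of Irf8 and Zbtb32 had a Pearson r of 0.95 and a Spearman rho of 0.97. Nfil3 had an r of 0.85 with Irf8 and of 0.82 with Zbtb32. Batf stood apart, at 0.17 to 0.49 with the other 5 members. The likeness of all 7270 genes with at least 20 CPM in at least 1 library was measured the same way. The 4 genes most like Zbtb32 were Pck2 (r 0.98), a mitochondrial enzyme of phosphoenolpyruvate synthesis, C1qtnf6 (0.97), Dmwd and Alad (both 0.96). Those most like Nfil3 were the cell cycle inhibitor gene Cdkn1a (0.96), Bhlhe40 (0.96), Prnp and Emilin2 (both 0.95). Irf8 was closest to Tmem205 (0.97), Bspry (0.96), Grn and Atp5d (both 0.95). Among the genes closest to Irf4 were Kctd17, Ccdc50 (0.95 each) and Il12rb2 (0.93). Batf3 was closest to Chchd10 (0.92), Mrps6 (0.91), Ube2v1 (0.90) and Gadd45gip1 (0.89), and Batf to Fuca2 (0.83), Tstd3 (0.80), Psmb9 and Klrk1 (both 0.79). Without the naive library the 3 genes named for Irf4 ranked 14 (Kctd17), 20 (Ccdc50) and 86 (Il12rb2), and Prnp ranked 12 for Nfil3, so these places depend on that library. The genes named for the other members ranked 7 or better without it. Ranked by Spearman rho instead, places moved more, to 247 for Grn with Irf8, 93 for Emilin2 with Nfil3 and 71 for Klrk1 with Batf. No p-value is given, because the libraries are not independent.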

How the data were processed

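The deposited tables hold whole-number UMI counts per gene and cell, made by the authors with Cell Ranger and Seurat 4.0.1 and 3.0.2 on the mm10 build, per the submitters' processing notes; the roles of the tools and the Cell Ranger version are not given in the sources used here. Every barcode in the tables had at least 1002 UMIs, so cells had been filtered before deposit. Of 106458 barcodes, 106456 passed limits of 1000 UMIs, 500 genes and 10% mitochondrial UMIs. No doublet caller was run; leaving out cells above 2 times the median UMIs was an alternative. UMIs were summed per library, scaled to CPM and compared as log2(CPM + 1), with exact Poisson and Clopper-Pearson 95% intervals. In floored medians a floor of 3 counts replaced any lower count. In fold ratios it replaced 0 UMIs alone, and a count of 1 UMI was kept. In the GENCODE annotation Irf8 overlaps Gm20388 on the same strand, with 0% of its exonic bases in exons of that gene, and the other 5 members overlap no gene; how reads in introns were counted is not given in the sources used here. The 6 members, the 8 lists and the rules were chosen with earlier results of these data known. Named genes were all 6 members, the called, highest and lowest genes of each list, and the 4 genes most like each member. Some genes that these rules name are not reported here. Day 7, named in the growth text, is not analysed here. Scripts used Python 3.11.15, numpy 2.4.6, pandas 2.3.3, scipy 1.17.1 and, for TMM factors alone, edgeR 4.0.16. Promoter windows came from RefSeq (GRCm38.p6) and gene positions from GENCODE.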

Additional observations from a re-analysis of the deposited data

Results flagged for a closer look

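With 2 doses per cytokine and day, 8 results were flagged. In each of them, all pairs of a group went the same way and all pairs of the other group the opposite way. In no case was the difference between the groups tested. They were picked from a search over members and groupings, and the number of combinations searched is not given here. The share of all genes that meet the same rule is not given either. The flagged results therefore describe the members and do not set them apart from other genes. From day 5 to day 10, both IL-2 pairs of Zbtb32 were higher and both IL-15 pairs lower, with a difference between the medians of 4.03 on the log2(CPM + 1) scale. For Irf8 in the same comparison the difference was 3.67, and for Nfil3 it was 1.33. From day 3 to day 10, Nfil3 was higher in both IL-2 pairs and lower in both IL-15 pairs, a difference of 1.78. The order of IL-2v and IL-2 turned over with time. Zbtb32 was higher with IL-2v on day 3 and lower on day 10 (difference of medians 1.41), and higher on day 5 and lower on day 10 (1.96). Irf8 was higher with IL-2v on day 5 and lower on day 10 (1.93). Batf was higher with IL-15 than with IL-2 on day 3 and lower on day 10 (1.54). Each of these comparisons rests on single libraries, and those of 1 cytokine share libraries with each other. Several of them use the day 5 library at 50 IU/mL of IL-2. That library had the fewest cells (3250) and the lowest median depth (3016 UMIs per cell).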

How the results depend on the processing

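The number of members called stayed within 1.5 times its reported value in 138 of 148 alternatives. This number can stay the same while the members change. For IL-15 against IL-2 without day 10, Zbtb32 was no longer called and Batf3 was called. Leaving out IL-2v raised it to 4 from day 3 to day 5 and to 1 from day 5 to day 10. For the dose step of IL-15 it was 1 instead of 0 with TMM scaling, at a filter of 5 CPM, with no filter and without day 3. For IL-2v against IL-2 it was 0 instead of 1 with 10 CPM added, without day 3 and without day 5, and for IL-2v against IL-15 it was 1 instead of 3 with 10 CPM added. With fewer pairs the same sign is easier to meet for every gene. Members gained by leaving out a day or a cytokine are therefore not set apart from other genes. No called median changed sign under any alternative run. The number of all genes called moved by over 1.5 times in 42 of 148 alternatives: for activation it ran from 779 with 10 CPM added to 2621 without a filter (1197 as reported), from day 3 to day 10 from 298 in cells without Mki67 or Top2a to 1146 without a filter (529), for the IL-2 dose step from 260 to 851 (411), and for IL-2v against IL-2 from 16 to 224 (77). TMM scaling moved the median of all genes from −0.17 to 0.09 for day 10 against day 3 and from −0.10 to 0.01 for day 5 against day 3, and from 0.10 to −0.03 for the IL-2v dose step. Shares of cells depend on depth: 236 of 252 moved beyond their interval with thinning to 1000 UMIs or none. Pairing by replicate was not possible because the replicate number is 1 in every library and so gives no block. Libraries were paired by equal day, dose or cytokine instead. Counts were lowest for Batf3, with 0 to 5 UMIs in 6 libraries. Protein sequences were not used here, so the planned comparison of member proteins was not run.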
